A study of Drosophila melanogaster with 12 samples.

Results

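The genes described here encode the subunits of oxidative phosphorylation, measured in whole adult male Drosophila melanogaster. They were chosen by name: every gene with a probe set of its own whose current symbol begins with ND-, Sdh, UQCR-, COX or ATPsyn, plus blw, RFeSP, Cyt-c1, Cyt-c-p and Cyt-c-d, with the brightest probe set of each gene over the 12 arrays. Of 96 such genes in the gene table, 76 had a probe set annotated to that gene alone, as had 11983 genes in all. A further 3 were only on probe sets shared with another gene. All 76 passed the filter on low values that left 10418 genes for testing. They were 54 main subunits, 21 copies and 1 assembly factor, Sdhaf3, which matures a subunit of complex II and is not itself a subunit. A copy is a gene whose symbol is that of another gene followed by L, with or without a number. From fly expression atlases, most such copies are known as testis-biased duplicates of a ubiquitously used subunit; the tissue of expression was not measured here, and the bias of COX7AL2 in particular is not known to be of this kind.

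Oxidative phosphorylation takes place in the inner mitochondrial membrane. Complex I takes electrons from NADH and complex II takes them from succinate; both pass them through ubiquinone to complex III, and cytochrome c carries them to complex IV, which reduces oxygen. Complexes I, III and IV pump protons, and ATP synthase uses the proton gradient to make ATP. Insect flight muscle is packed with these mitochondria, and developing sperm also build large mitochondrial derivatives.

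The study fed control or high-sugar diet to wild-type males of the strain Canton-S. All flies were 3 to 5 days old at the start and were kept in single-sex vials. They were sacrificed after 2 days, at 5 to 7 days of age, or after 4 weeks, at 31 to 33 days of age. RNA of whole animals was hybridized to Affymetrix arrays, with 4 groups of 3 arrays. The labels call these 3 biological replicates; how many flies each held is not given in the sources used here. Feeding time and age run together in this design. The labels and the table give no scan or extraction day, so neither can be told apart from any difference in processing between the early and late samples. In whole animals, fewer cells of a type and less RNA per cell cannot be told apart.

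Measured were 27 main subunits and 5 copies of complex I, 3 and 3 of complex II, 6 and 2 of complex III, 7 and 7 of complex IV, and 11 and 4 of ATP synthase. The other 20 genes had no probe set annotated to them alone and are not analysed here. That does not show that the array lacks probes for these 20 genes. Among the 20 were both cytochrome c genes, the large complex III proteins UQCR-C1 and UQCR-C2, the flavoprotein SdhA of complex II, and COX1, COX2 and COX3, the core of complex IV that the mitochondrial genome encodes. The chromosome was not part of the choice; 10 of the 54 main subunits and 1 of the 21 copies, SdhBL, are X-linked in the RefSeq gene table. The samples carried male markers: all 7 accessory gland genes looked for were measured. Of the female yolk protein genes, Yp2 did not pass the filter on low values. Yp3 read between 68.4 and 127 on the 12 arrays and was not called with time. Yp1 rose with time at low intensity, from 13.1 ± 3.75 to 84.2 ± 35.5 on control diet and from 9.1 ± 4.26 to 51.2 ± 7.29 on high-sugar diet (SD, n = 3 arrays each; limma adjusted p 4.56e-05 and 0.000167). The part of that rise in the results was not tested. Values are deposited intensities on a linear scale. Intensities of different probe sets are not compared with each other, since probes differ in how strongly they bind. Whether bright and dim probe sets report fold changes on the same scale was not tested. The fold changes are on the log2 scale, and a gene is called higher or lower at a limma p-value under 0.05 after Benjamini-Hochberg adjustment over all 10418 genes.

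Main subunits fell with feeding time on both diets. Of the 54, 48 were lower and 1 was higher at 4 weeks than at 2 days on control diet, and 47 were lower and 1 higher on high-sugar diet, by limma. The background is wide, since 18.8% of all genes tested were called lower and 14.3% higher with time on control diet, and 22.7% lower and 19.9% higher on high-sugar diet. The median log2 fold change of the main subunits was -0.34 on control diet and -0.38 on high-sugar diet, where the median of all genes was -0.01 and 0.03. All arrays of 4 weeks lay below all of 2 days for 50 of the 54 on control diet and 51 on high-sugar diet, against 25.1% and 26.5% of all genes. They lay above for 1 on each diet, against 20.3% and 28.6% of all genes. Most main subunits had a mean log2 intensity of 11 or more. Of all genes with such an intensity, leaving the oxidative phosphorylation genes out, 22.3% and 25.3% were called lower (a limit chosen after the intensities were seen).

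**Figure D1:**
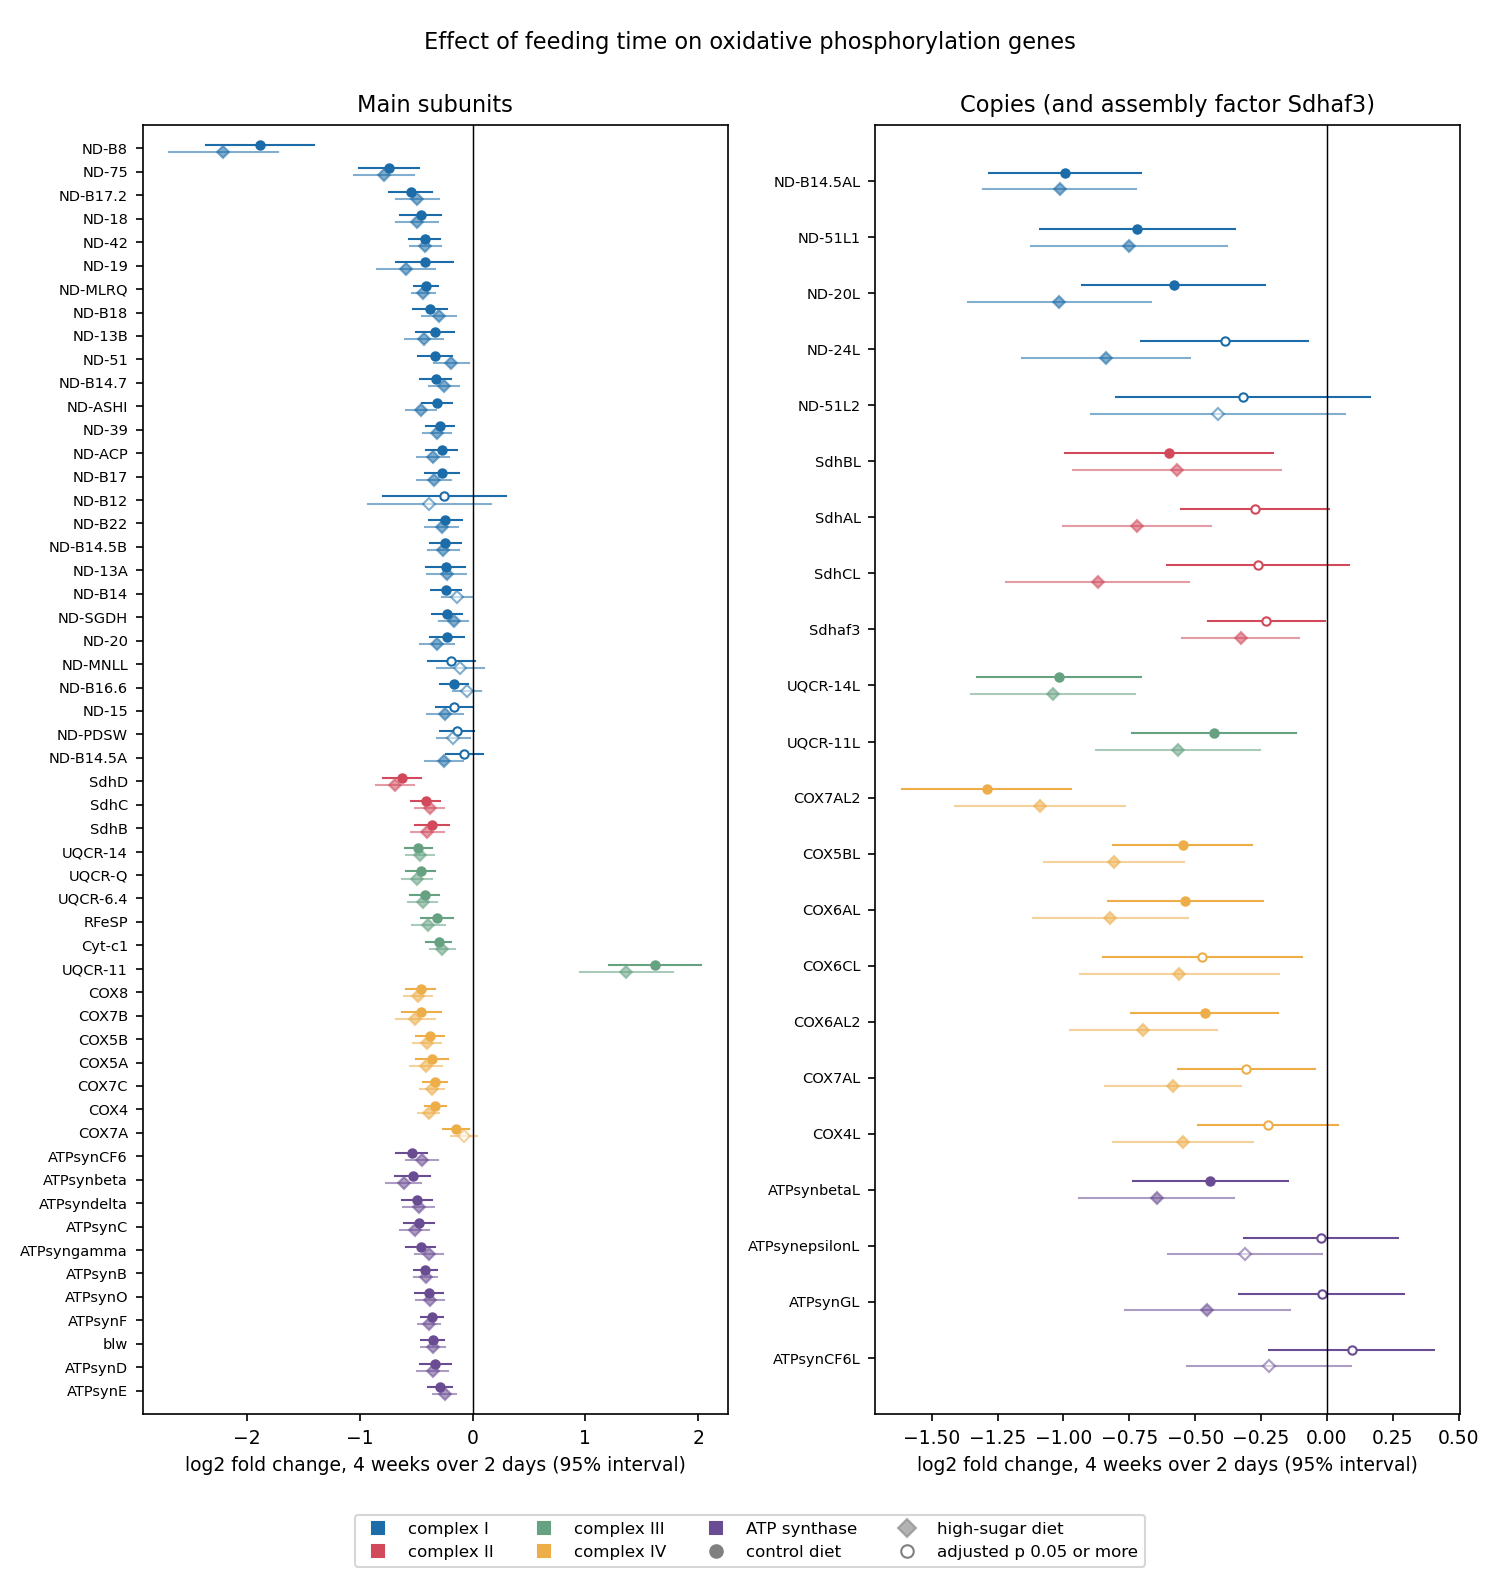
Log2 fold change from 2 days to 4 weeks of every gene, by complex, on control and high-sugar diet (horizontal axis, with 95% interval; 1 line a gene on the vertical axis, circles for control and diamonds for high-sugar diet, open where the limma adjusted p was 0.05 or more). Most main subunits lie between -0.74 and -0.07 on control diet, with ND-B8 far below them and UQCR-11 above 0.

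Complex I oxidizes NADH through a flavin and a chain of iron-sulfur clusters. On each diet 22 of its 27 main subunits were lower with time, with a median of -0.27 on control and -0.32 on high-sugar diet. ND-75, a core subunit that holds iron-sulfur clusters, read 2656, 2804 and 2798 at 2 days and 1294, 1848 and 1861 at 4 weeks on control diet. On high-sugar diet it read 2597, 2857 and 3000.2 and then 1674, 1675 and 1541. The 2-day and 4-week arrays did not overlap on either diet, and its log2 fold changes were -0.74 and -0.79 (standard error 0.12, limma adjusted p 0.00098 and 0.000436). Its lowest array was control array 1 at 4 weeks.

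ND-MLRQ, whose mammalian counterpart has been placed with complex IV, read 13078, 12958 and 13475 at 2 days and 9195, 10436 and 10094 at 4 weeks on control diet, a log2 fold change of -0.41 ± 0.05 (SE, n = 3 arrays a group, limma adjusted p 0.000117). Again no array of 4 weeks reached one of 2 days. On high-sugar diet the means were 12680.4 ± 168 and 9379.6 ± 263 (SD, n = 3 each), a change of -0.44.

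ND-B8, an accessory subunit of the arm that holds the clusters, had the largest fall of all 76 genes. On control diet its intensities went from 356, 376 and 412 to 79.1, 135 and 102, and on high-sugar diet from 433, 433 and 757 to 133, 111 and 96.9. All 6 arrays of 4 weeks lay below all 6 of 2 days, and high-sugar array 3 stood above the other 2-day arrays. The log2 fold changes were -1.89 and -2.21 (standard error 0.22, limma adjusted p 0.000112 and 3.74e-05).

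Among the other complex I subunits the falls on control diet ran down to -0.55 for the accessory subunit ND-B17.2, with ND-18 at -0.46 and ND-42 at -0.42. ND-51, which binds NADH and flavin, had values of -0.33 (limma adjusted p 0.00459) on control and -0.19 (adjusted p 0.0485) on high-sugar diet. ND-20, the cluster-bearing subunit next to the quinone site, had -0.22 and -0.32. The subunits called lower on both diets reached up to this value of ND-20 on control diet, a call lost under 5 of 22 other settings. Accessory subunits that missed the threshold on at least 1 diet numbered 7. ND-B12, ND-MNLL and ND-PDSW passed on neither, ND-B14 and ND-B16.6 passed on control diet, and ND-15 and ND-B14.5A on high-sugar diet. ND-B14.5A had -0.07 on control and -0.25 on high-sugar diet, and a passing call on 1 diet does not show that the diets differ, since none of the 76 genes was called in the test of that difference. ND-B12 read between 13.2 and 30.2 on the 12 arrays, close to the floor of 11.8 set on low values.

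Complex II links the citric acid cycle to the chain. All 3 of its measured main subunits fell on both diets, with medians of -0.42 and -0.40. SdhD, one of the membrane anchors, read 3759, 3529 and 3798 and then 2204, 2605 and 2384 on control diet, and 3807, 3833 and 4005 and then 2592, 2326 and 2307 on high-sugar diet. The arrays of the 2 times did not overlap, with log2 fold changes of -0.63 and -0.69 (limma adjusted p 0.000165 and 7.56e-05). SdhC, the other anchor, changed by -0.42 and -0.38. The iron-sulfur subunit SdhB changed by -0.36 and -0.40. The assembly factor Sdhaf3 had -0.23 (adjusted p 0.1) on control diet and -0.33 (adjusted p 0.0212) on high-sugar diet by limma.

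In complex III, 5 of 6 main subunits fell on each diet and 1, UQCR-11, rose. RFeSP, the Rieske iron-sulfur protein, changed by -0.31 and -0.39 on its kept probe set, and Cyt-c1, which hands electrons to cytochrome c, by -0.30 and -0.27. UQCR-14 read 10534, 10262 and 10435 at 2 days and 7113, 8075 and 7230.0 at 4 weeks on control diet (log2 fold change -0.48, limma adjusted p 0.000107), and its high-sugar value was -0.47. A second probe set of RFeSP, with a mean log2 intensity of 5.23, disagreed. Its values were -0.44 and 1.69 with time and 2.28 for diet at 4 weeks. The limma adjusted p was 0.426, 0.00529 and 0.0124, over the probe sets past the filter that named 1 gene. UQCR-Q changed by -0.46 and -0.49, and UQCR-6.4 by -0.43 and -0.44.

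UQCR-11 went the other way at low intensity. Its probe set read 31.6, 32 and 26.4 at 2 days and 86.4, 99.4 and 89.7 at 4 weeks on control diet, and 48.8, 29.3 and 30.8 and then 78, 89.1 and 108 on high-sugar diet. Every 4-week array was above every 2-day array, by 1.62 and 1.36 on the log2 scale (limma adjusted p 0.000107 and 0.000225). Its values are low, with the floor at 11.8. Without UQCR-11, ND-B12 and ND-B8, the 3 main subunits with the lowest mean intensity (left out after their values were seen), the medians of the remaining 51 were -0.35 and -0.39.

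Complex IV had 7 measured main subunits, all encoded in the nucleus. On control diet 7 were lower, and on high-sugar diet 6. COX4, one of its nuclear-encoded subunits, read 11933, 11686 and 11890.0 at 2 days and 9158, 9569 and 9548 at 4 weeks on control diet. On high-sugar diet it read 11369, 11609 and 11623 and 8726, 9153 and 8534. The spread within a group was small beside the step between times, and the log2 fold changes were -0.33 and -0.39 (standard error 0.04, limma adjusted p 0.000169 and 5.02e-05). COX8 changed by -0.46 and -0.49, COX7B by -0.46 and -0.51, and COX5B by -0.38 and -0.41. COX5A changed by -0.36 and -0.42, and COX7C by -0.33 and -0.36 on its kept probe set; its second, with a mean log2 intensity of 7.36, had 0.03 and -0.42. COX7A had the smallest change of the 7, -0.15 on control diet, with an adjusted p of 0.0499 that was lost under 17 of 22 other settings, and -0.08 (adjusted p 0.266) on high-sugar diet.

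All 11 main subunits of ATP synthase fell on both diets, with medians of -0.42 and -0.39. ATPsynbeta, the catalytic subunit, read 9689, 9889 and 10717 at 2 days and 6468, 7353 and 7139 at 4 weeks on control diet, and 9471, 10082 and 10501 and then 5977, 6810.0 and 6927 on high-sugar diet. The 2 times did not overlap on either diet, with log2 fold changes of -0.53 and -0.61 (limma adjusted p 0.000246 and 8.67e-05). A second probe set of the gene also fell on both diets. The alpha subunit blw, which forms the catalytic ring with it, changed by -0.35 and -0.35. In the stalk that holds the ring still, ATPsynB changed by -0.42 and -0.42 and ATPsynCF6 by -0.54 and -0.45. ATPsyndelta, of the rotating central stalk, changed by -0.49 and -0.48. The smallest fall of the complex was in ATPsynE, at -0.29 and -0.25.

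**Figure D2:**
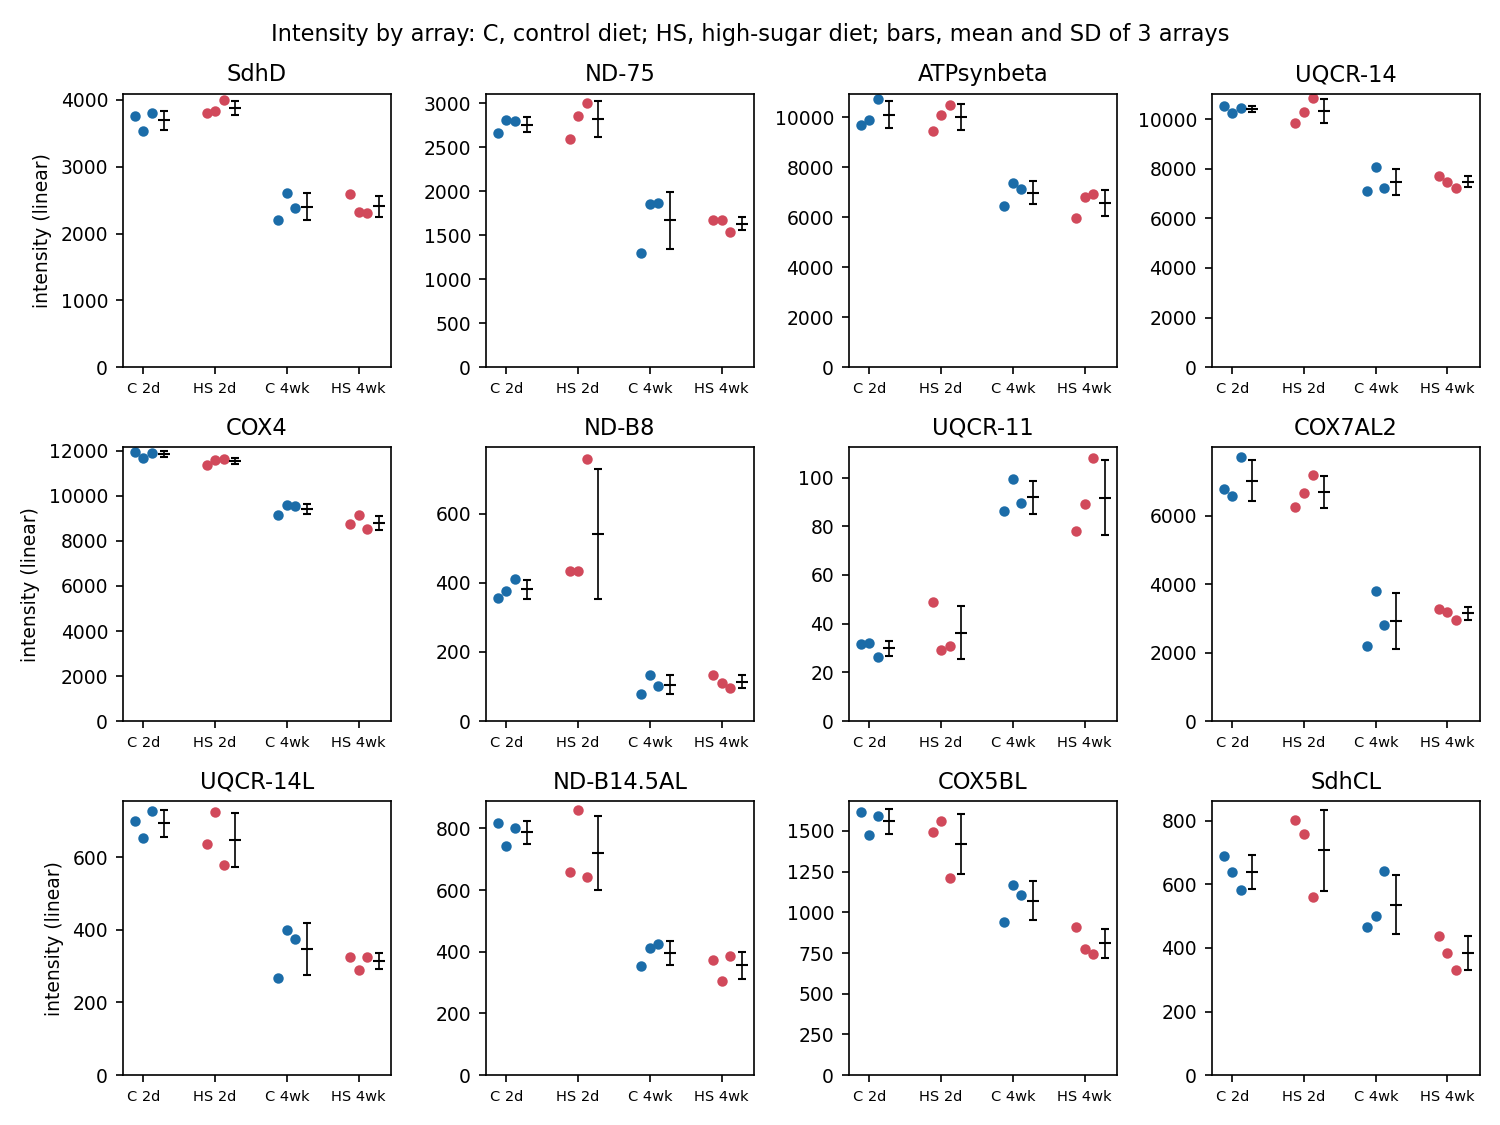
Intensity on each of the 12 arrays (vertical axis, deposited linear intensity) for chosen genes, by group of diet and time; each point is 1 array and bars are the mean and SD of 3 arrays. The 4-week arrays sit below the 2-day arrays for ND-75, ND-B8 and SdhD and above them for UQCR-11.

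Effects of time on the 2 diets come from separate arrays, 6 for each diet, so the 2 sets of values can be set side by side. Across the 54 main subunits Pearson's r was 0.973 and Spearman's rho 0.890, and without these 3 genes 0.882 and 0.883; genes are not independent replicates, and no p is given. All 54 had the same sign on both diets, and 45 were called lower on both. Subunits with larger falls on control diet tended to have larger falls on high-sugar diet.

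**Figure D3:**
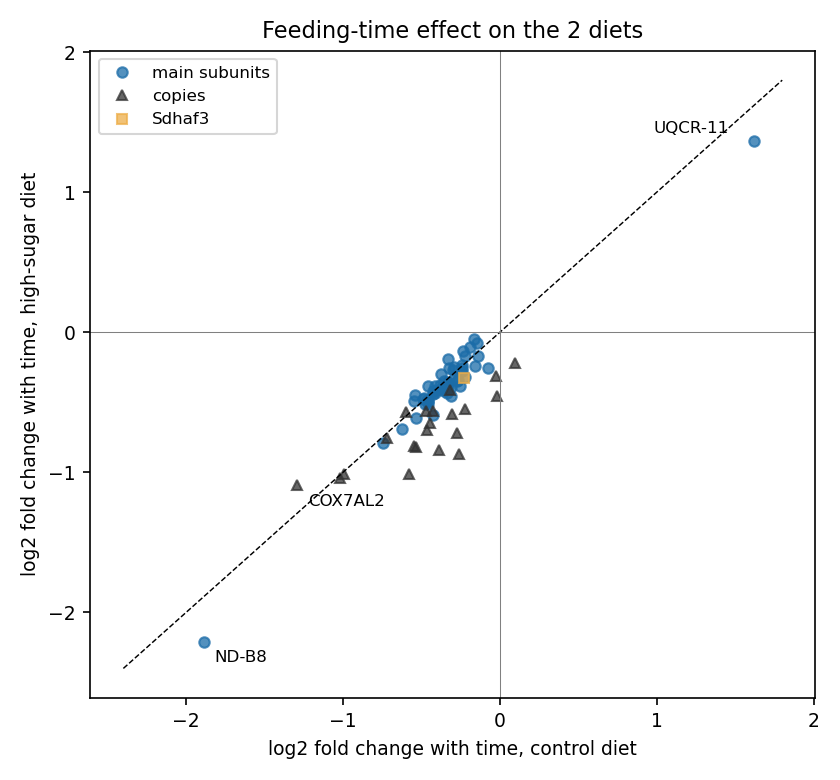
Log2 fold change with time on control diet (horizontal axis) against that on high-sugar diet (vertical axis), 1 point a gene, with the line of equal values; the 2 axes share no arrays. Main subunits lie along the line, while 19 of 21 copies lie below it.

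Copies also fell with feeding time. Of 21 copies, 11 were lower on control diet, with a median of -0.44, and 18 on high-sugar diet, with a median of -0.70, and 0 were higher on either; of all genes, 18.8% and 22.7% were called lower. All 4-week arrays lay below all 2-day arrays for 14 copies on control and 19 on high-sugar diet, against 25.1% and 26.5% of all genes. The count of calls on control diet was 7 without control array 1 at 4 weeks, in which the copies had their lowest median of that group. The fall was larger on high-sugar diet in 19 of the 21 copies and in 33 of the 54 main subunits. The difference between the diets was called for 0 of 54 main subunits and 0 of 21 copies by limma (0% of all genes). An unadjusted p under 0.05 was found for 3 copies, and for 757 of all 10418 genes. The median difference for the copies was -0.26. So the larger high-sugar falls are not shown gene by gene. The exceptions among the copies were COX7AL2 and SdhBL, whose falls were larger on control diet.

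Of the 5 copies of complex I, 3 were lower on control diet and 4 on high-sugar diet, with medians of -0.58 and -0.84. ND-B14.5AL, the copy of the accessory subunit ND-B14.5A, read 816, 744 and 801 at 2 days and 353, 411 and 425 at 4 weeks on control diet, and 659.5, 859 and 644 and then 375, 305 and 387 on high-sugar diet. The groups did not overlap, with log2 fold changes of -0.99 and -1.01 (standard error 0.13, limma adjusted p 0.000261 and 0.000179), where ND-B14.5A had -0.07 and -0.25. The copy ND-20L had -0.58 and -1.02, and ND-51L1 had -0.72 and -0.75. ND-24L passed on high-sugar diet, at -0.84, beside -0.39 on control diet. ND-51L2, at -0.32 and -0.41, was not called on either, and its arrays of 2 days ran from 73.2 to 151.

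For complex II, SdhBL passed on both diets (-0.60 and -0.57), and SdhAL (-0.27 and -0.72) and SdhCL (-0.26 and -0.87) on high-sugar diet. The high-sugar arrays of SdhBL overlapped, with 2227, 2460 and 1361 at 2 days and 1457, 1152 and 1366 at 4 weeks. Its call was lost under 5 of 22 other settings on control diet and under 4 on high-sugar diet. Both copies of complex III fell on both diets. UQCR-14L read 699, 652 and 726 at 2 days and 267, 399 and 376 at 4 weeks on control diet, and 637, 724 and 577 and then 326, 288 and 325 on high-sugar diet. No array of 4 weeks came near one of 2 days, and the log2 fold changes were -1.02 and -1.04 (limma adjusted p 0.000363 and 0.000221), against -0.48 and -0.47 for UQCR-14. UQCR-11L had -0.43 and -0.56, opposite in sign to UQCR-11. The call of UQCR-11L on control diet was lost under 6 of 22 other settings.

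Of the 7 copies of complex IV, 4 were lower on control diet and 7 on high-sugar diet. COX7AL2 had the largest fall of the 21 copies on both diets. It read 6761, 6579 and 7705 at 2 days and 2189, 3812 and 2799 at 4 weeks on control diet, and 6239, 6669 and 7172 and then 3286, 3198 and 2942 on high-sugar diet. No 4-week array reached a 2-day array, and the log2 fold changes were -1.29 and -1.09 (limma adjusted p 9.72e-05 and 0.000207), whereas COX7A had -0.15 and -0.08. Its probe set carries the suffix that the manufacturer gives to sets whose probes match several transcripts, so signal from another gene cannot be told apart; 10 main subunits have such a set and COX7AL2 is the only copy with one. COX5BL had -0.55 and -0.81, COX6AL -0.54 and -0.82, and COX6AL2 -0.46 and -0.70. COX4L, COX6CL and COX7AL passed on high-sugar diet and not on control diet, with -0.55, -0.56 and -0.58 there and -0.22, -0.47 and -0.31 on control diet. The main partner of the COX6A copies, levy, changed by -0.33 and -0.33, and that of COX6CL, cype, by -0.35 and -0.30.

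The 4 copies of ATP synthase had a median of -0.02 on control diet and -0.38 on high-sugar diet. ATPsynbetaL passed on both, at -0.44 and -0.65, but its call on control diet was lost under 4 of 22 other settings. ATPsynGL read 1142, 1190.4 and 1153 at 2 days and 951, 1119 and 1414 at 4 weeks on control diet, which overlapped, and 1346, 1224 and 1003 and then 959, 800.0 and 839 on high-sugar diet, which did not. Its log2 fold changes were -0.02 and -0.45 (limma adjusted p 0.927 and 0.023). The high-sugar call of ATPsynGL was lost under 4 of 22 other settings. ATPsynepsilonL (-0.02 and -0.31) and ATPsynCF6L (0.09 and -0.22) were called on neither. Their partners sun and ATPsynCF6 had -0.42 and -0.04, not called, and -0.54 and -0.45, both called. The probe set of sun read low, between 25.2 and 61.5 over all arrays, with the floor at 11.8. Nothing is therefore read from sun as the partner of ATPsynepsilonL.

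**Figure D4:**
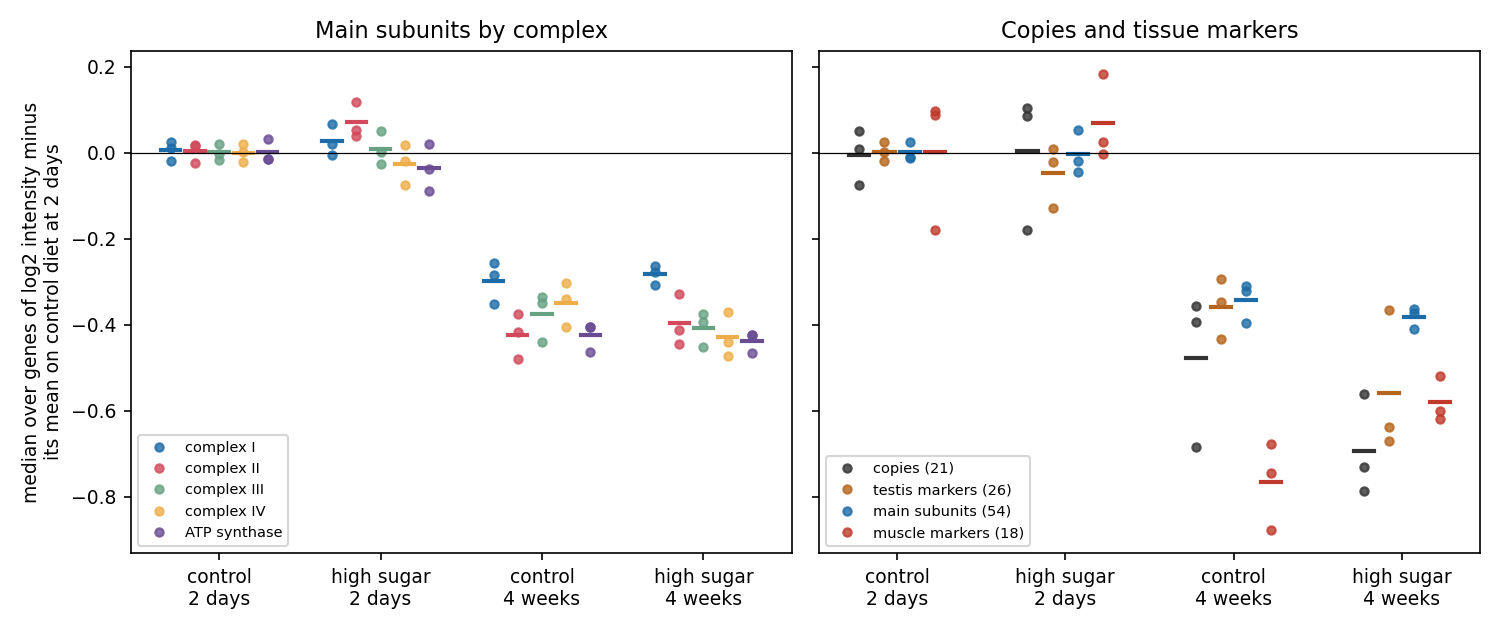
Median over the genes of a group of log2 intensity minus the gene's mean on control diet at 2 days (vertical axis, log2 units), 1 point an array with bars at the group mean. Left, main subunits by complex; right, copies, main subunits and testis and muscle markers. The copies run from -0.68 to -0.36 on control diet and from -0.79 to -0.56 on high-sugar diet at 4 weeks.

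Tissue markers were read on the same arrays. Of all genes, 18.8% were called lower and 14.3% higher with time on control diet. On high-sugar diet the shares were 22.7% and 19.9%. Of 31 testis markers looked for, 26 were measured and none stood at the floor on any array; 16 were lower and 1 higher with time on control diet and 20 lower on high-sugar diet, with medians of -0.35 and -0.49. The median shift of the testis markers from control diet at 2 days ran from -0.43 to -0.29 on the control arrays at 4 weeks and from -0.67 to -0.36 on the high-sugar arrays. For the copies these ranges were -0.68 to -0.36 and -0.79 to -0.56. At 4 weeks the summed intensity of the testis markers ran from 65460 to 71559 on control and from 58709 to 65754 on high-sugar diet. At 2 days it had run from 86321 to 92162 on control and from 80593 to 90260 on high-sugar diet. Such sums rest mostly on the brightest probe sets, here among them Mst84Da, Mst84Dc and ocn. They say little of dim markers such as can and aly. Of 18 muscle markers, 17 and 16 were lower on the 2 diets, with medians of -0.77 and -0.60, and their summed intensity went from between 81167 and 95739 on control diet at 2 days to between 48951 and 54184 at 4 weeks. The main subunits ran from -0.40 to -0.31 and from -0.41 to -0.36 at 4 weeks. Accessory gland markers were lower in 6 of 7 and 7 of 7, neuron markers in 4 and 2 of 11, and photoreceptor markers in 5 of 7 on each diet. Of 6 fat body markers, 2 were higher and 1 lower on control diet, and 3 higher and 1 lower on high-sugar diet. Of 15 gut markers, 1 was higher and 1 lower on control diet, and 0 higher and 4 lower on high-sugar diet. Nothing is read from the counts of the neuron, fat body and gut markers. The part of these tissues in the falls of the subunits was not tested.

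Other genes of the pathway were described by lists, which like the genes above were chosen with earlier results of these data known. Of 5 further subunit genes, cype, levy, ox, sun and Cyt-c1L, 4 were lower on each diet, and Cyt-c1L, a copy of Cyt-c1, had -0.78 and -1.09 against -0.30 and -0.27 for Cyt-c1. Of 6 genes for exchange across the mitochondrial membranes, 4 were lower on control diet and 6 on high-sugar diet. Of all genes, 18.8% and 22.7% were called lower on the 2 diets. The ADP/ATP carrier sesB changed by -0.53 and -0.53. The phosphate carrier gene Mpcp1 read 4764, 4655 and 5405 at 2 days and 758, 1249 and 1184 at 4 weeks on control diet, a log2 fold change of -2.25 (limma adjusted p 3.46e-06), and had -2.21 on high-sugar diet.

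Of 9 assembly factors measured, 2 were higher and 1 lower on control diet, and 0 higher and 1 lower on high-sugar diet. Of all genes, 14.3% were higher and 18.8% lower on control diet, and 19.9% and 22.7% on high-sugar diet, and nothing is read from the counts of so few genes. The copper chaperone Scox (0.54) and Surf1 (0.28), both of complex IV assembly, were the higher ones, and Cox10, of haem a synthesis, was lower on both (-0.50 and -0.62). Of 7 genes of mitochondrial transcription, replication and its regulators, 1 was higher on control diet and 3 on high-sugar diet, and 0 were lower. The mitochondrial single-stranded DNA binding protein gene mtSSB changed by 0.43 and 0.83. The nuclear factors ewg and Ets97D were higher on high-sugar diet, at 0.30 and 0.48, with 0.06 and 0.14 on control diet, and TFAM, which packs mitochondrial DNA, was not called (-0.33 and -0.38).

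By limma, no oxidative phosphorylation gene was called for diet at either time, nor for the average of the diet effects at both times, for which 2.62% of all genes were called. At 2 days 0 of the 76 were called, where 0.144% of all genes were called. An unadjusted p under 0.05 was found for 866 of all 10418 genes and for 1 main subunit. That was ND-20, with 3442, 3782 and 3619 on control and 4044, 3804 and 4302 on high-sugar diet, a log2 fold change of 0.16 (95% interval 0.01 to 0.31, limma adjusted p 0.547); its groups did not overlap. The median was -0.01 for main subunits and 0.02 for copies. For the 51 main subunits without UQCR-11, ND-B12 and ND-B8, no 95% interval reached beyond -0.28 or 0.35.

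Of the 54 main subunits at 2 days, 7 were lower and 6 higher without overlap, against 7.65% and 6.58% of all genes, and of the copies 0 either way. ATPsynCF6 had -0.09, SdhB 0.14 and COX7A -0.10, the largest sizes of diet effect among the main subunits of their complexes at 2 days, and ND-B8 and UQCR-11 had 0.45 (95% interval -0.03 to 0.94) and 0.24 (-0.17 to 0.65).

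At 4 weeks 0 of 76 were called again, where 1.93% of all genes were. The median of the main subunits was -0.02, and for the same 51 no 95% interval reached beyond -0.39 or 0.35. COX4 was lower without overlap, 9158, 9569 and 9548 on control and 8726, 9153 and 8534 on high-sugar diet, but at -0.10 its limma adjusted p was 0.215. ND-51 was higher without overlap, at 0.17 (adjusted p 0.218). Of the 54, 1 was lower and 2 were higher without overlap, against 9.79% and 13.5% of all genes. The largest sizes among the main subunits of the other complexes were -0.09 for ATPsynbeta, 0.10 for SdhB and -0.07 for UQCR-6.4, and -0.40 (-0.94 to 0.15) for the dim ND-B12.

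None of the 21 copies passed at 4 weeks either, but 19 had negative values, with a median of -0.25. Of all 10418 genes, 4989 were negative. Of the 21, 7 had an unadjusted p under 0.05 by limma, as had 2069 of all 10418 genes. The smallest limma adjusted p of the copies was 0.114. SdhCL read 465, 501 and 641 on control and 438, 384 and 331 on high-sugar diet, the most negative of them at -0.47 (95% interval -0.82 to -0.13, adjusted p 0.142). COX5BL, with the smallest p, read 938, 1169 and 1104 and 908, 773 and 746, a log2 fold change of -0.40 (95% interval -0.67 to -0.14). Both were apart on these 3 and 3 arrays, as were 5 of the 21 copies, against 9.79% of all genes that were lower without overlap. Of the 26 testis markers, 25 were negative in the same comparison, with a median of -0.19 and 0 called; their part in the copies' values was not tested.

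**Figure D5:**
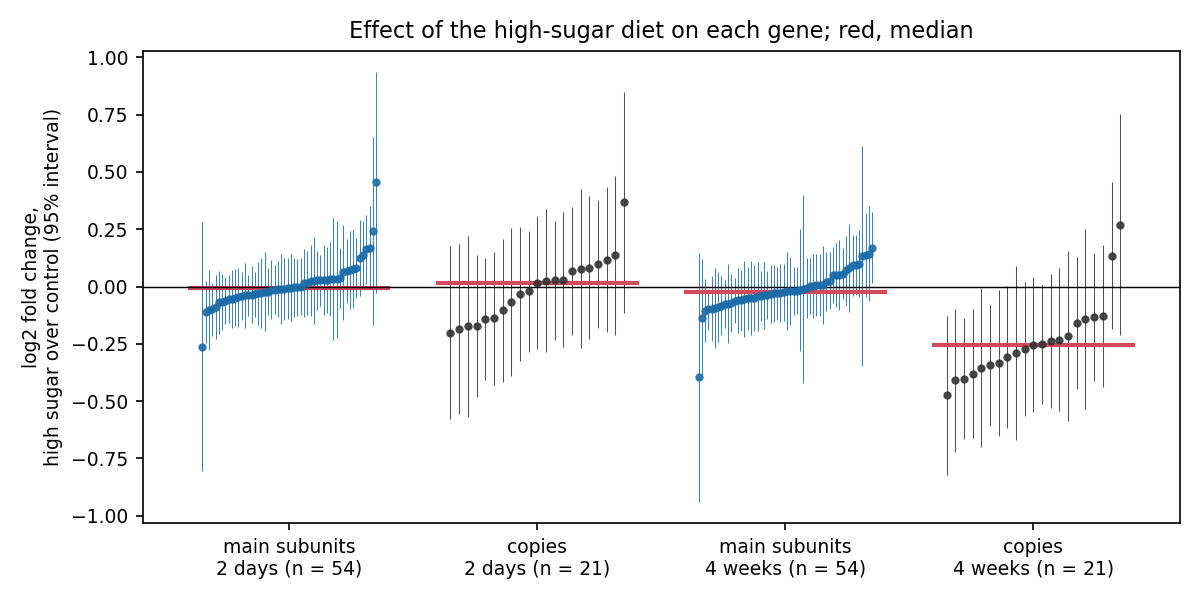
Log2 fold change of high-sugar over control diet at 2 days and at 4 weeks for main subunits and copies (vertical axis, log2 fold change with 95% interval from limma; each point is 1 gene, ordered by value; red lines are medians). At 4 weeks 19 of 21 copies lie below 0, with a median of -0.25, and the main subunits centre at -0.02.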

How the data were processed

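Transcripts of whole male flies were measured on 12 one-colour arrays. The authors extracted linear intensities with the match/mismatch model of dChip and normalized the arrays there, per the series text; detection calls are not given in the sources used here. From the deposited intensities of 18869 probe sets, values below the pooled 20th percentile (11.8) were raised to that floor before taking log2. Dropping 100 control probe sets and then the dimmest 30% (means below log2 4.30) left 13138 probe sets. Of the array's probe sets 13647 named 1 gene, 402 several; 13544 were matched by ID to the RefSeq gene table (Release 6), and the highest-mean probe set was kept for each of 10418 genes. Array medians lay between 87.0 and 93.4. The number of arrays limits the precision, with a median standard error of 0.13 on the log2 scale over all genes.

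In R 4.3.3, limma 3.58.1 estimated the 4 group means from the 12 arrays (lmFit, eBayes with a trend, 8 residual degrees of freedom); the fit was tested on simulated data. Benjamini-Hochberg adjustment ran over all genes in each of 6 contrasts, with a threshold of 0.05. The plots come from matplotlib 3.10.9 and pandas 2.3.3 under Python 3.11.15. Named with values were up to 6 higher and 6 lower genes per pairwise contrast with the smallest adjusted p, every copy with its partner, per complex the main subunit with the highest and lowest mean and the largest change in each contrast, and blw, RFeSP, Cyt-c1 and the Sdh genes. Others named were chosen after their values were seen. The genes and lists were chosen with earlier results of these data known. COX6AL, COX6AL2, COX6CL and ATPsynepsilonL were taken as copies through older symbols of levy, cype and sun. Alternatives were quantile normalization, centring on medians, other floors and filters, eBayes without a trend, a replicate block, fits without the groups not compared, averaged probe sets, a fold of 1.5, and leaving out each array. A planned search for promoter motifs was not run.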

Additional observations from a re-analysis of the deposited data

How the results depend on the processing

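The counts of calls for diet at 2 days, at 4 weeks, their difference and their average for main subunits and copies were 0 under the other settings, with 1 exception: averaging a gene's probe sets made 1 main subunit higher for diet at 4 weeks. The same setting made 2 main subunits higher with time on high-sugar diet and turned RFeSP there to 0.65. With a fold of at least 1.5 required, 3 main subunits and 5 copies were lower with time on control diet, and 5 and 12 on high-sugar diet; 24 of 78 calls of named genes had such a fold. A filter at 50% left 0 main subunits higher on either diet, since it removed UQCR-11. Leaving out 1 array at a time gave 40 to 47 main subunits and 7 to 13 copies lower with time on control diet, the latter 7 without control array 1 at 4 weeks, and 42 to 47 and 15 to 19 on high-sugar diet. Quantile normalization moved the median of the main subunits from -0.34 to -0.25 on control diet and from -0.38 to -0.28 on high-sugar diet. It moved the median of all genes from -0.01 to 0.03 and from 0.03 to 0.06. It ended the calls of Cyt-c1 and cype on both diets, levy and COX7A on control diet and ND-51 on high-sugar diet. Leaving the threshold of 1.5-fold aside, 58 of those 78 calls were kept under every alternative that gave a value, 20 were lost under 1 or more, and 1 changed direction; ND-51 on high-sugar diet was lost under 16.

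With the replicate block, 46 main subunits and 11 copies were lower with time on control diet and 44 and 18 on high-sugar diet. Same-numbered arrays did not pair: of 18 pairs, 4 had a correlation of deviations over 0.1 (from -0.23 to 0.15), and 1 of 12 arrays correlated best with its own number. Detection calls are not given in the sources used here. Whether dim probe sets such as those of ND-B12, UQCR-11 and sun are above background is therefore not known.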
